A study of Mus musculus with 2 samples.

Results

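Glutamatergic thalamic nuclei carrying transcripts of Adamts9, Crybg1 and Tspan11 were examined in single-nucleus RNA sequencing of mouse thalamus. Members were picked by a counting rule on unique molecular identifiers (UMIs, the barcodes that mark single captured transcripts). A member had at least 1 UMI of the vesicular glutamate transporters Slc17a6 and Slc17a7 together, no UMI of Gad1 or Gad2, and at least 3 UMIs of Adamts9, Crybg1 and Tspan11 together. That sum also had to exceed the sum of C6, Tspear and Tll1, and had to be no smaller than the sum of Adgrf5, Abhd12b and Zfp385c, genes of other thalamic neurons. The rule found 272 of 38150 nuclei, 135 of 16373 in the sham library and 137 of 21777 in the injury library. Because measured values chose the members, levels of these genes, and any difference between members and other nuclei, are described and not tested.

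The study removed sensory and motor cortex on one side by aspiration (cortical ablation injury) or opened the skull without removing tissue (sham operation) in female C57BL/6J mice at 3 months of age. Thalamus of the operated side was collected at day 21, nuclei of 4 mice per group were pooled and sorted by a DNA stain, and each pool became 1 droplet library. Nuclei carry no mark of their mouse, so each group was 1 sample, no difference between sham and injury had a replicate check, and none was tested. The injury model is a surgical resection of cortex without an impact. Intervals are 95% intervals of counting error only. The libraries held 137850696 sham and 180106314 injury UMIs in 16390 and 21828 barcodes, and 101 barcode sequences occurred in both. Levels are given in CPM, a gene's UMIs summed over a class of nuclei per 1000000 UMIs of that class.

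Thalamic glutamatergic neurons relay sensory, motor and limbic signals to cortex, and their nuclei differ in adhesion, channel and matrix genes. Adamts9 encodes a secreted metalloprotease that cleaves proteoglycans of the extracellular matrix such as versican and aggrecan. Crybg1, also known as Aim1, encodes a large protein with beta-gamma crystallin domains, and Tspan11 a membrane protein of the tetraspanin family. Gbe1, the fourth marker given for these neurons, encodes the glycogen branching enzyme and took no part in the rule.

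The promoters of the 4 marker genes are shown because these genes name the nuclei. Each window covers 300 bases around the annotated start, taken from RefSeq on GRCm38.p6 and written 5′ to 3′ on the gene's strand, with matches to GGGCGG or its reverse complement (the GC box bound by SP factors) in capitals. The Adamts9 window lies at chr6:92943485-92943784 on the minus strand, and the Crybg1 window, the most distal of 3 listed for that gene, at chr10:44148779-44149078 on the minus strand. The Tspan11 window lies at chr6:127887372-127887671 and the Gbe1 window at chr16:70313699-70313998, both on the plus strand.
Adamts9: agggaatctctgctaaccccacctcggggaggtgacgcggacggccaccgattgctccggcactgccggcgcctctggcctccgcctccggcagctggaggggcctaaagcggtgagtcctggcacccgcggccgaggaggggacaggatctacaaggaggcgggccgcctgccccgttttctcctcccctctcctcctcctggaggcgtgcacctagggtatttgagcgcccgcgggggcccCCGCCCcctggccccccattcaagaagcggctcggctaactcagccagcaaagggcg
Crybg1: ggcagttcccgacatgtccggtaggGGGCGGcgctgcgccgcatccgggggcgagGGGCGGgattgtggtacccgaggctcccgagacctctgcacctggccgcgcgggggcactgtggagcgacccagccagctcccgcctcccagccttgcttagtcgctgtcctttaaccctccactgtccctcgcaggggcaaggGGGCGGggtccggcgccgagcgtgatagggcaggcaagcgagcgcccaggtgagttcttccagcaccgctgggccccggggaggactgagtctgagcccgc
Tspan11: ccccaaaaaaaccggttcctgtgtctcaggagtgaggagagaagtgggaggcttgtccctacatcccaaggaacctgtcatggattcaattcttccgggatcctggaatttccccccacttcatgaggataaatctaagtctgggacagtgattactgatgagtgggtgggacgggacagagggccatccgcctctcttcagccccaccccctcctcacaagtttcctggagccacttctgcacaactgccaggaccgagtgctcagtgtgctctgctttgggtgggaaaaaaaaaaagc
Gbe1: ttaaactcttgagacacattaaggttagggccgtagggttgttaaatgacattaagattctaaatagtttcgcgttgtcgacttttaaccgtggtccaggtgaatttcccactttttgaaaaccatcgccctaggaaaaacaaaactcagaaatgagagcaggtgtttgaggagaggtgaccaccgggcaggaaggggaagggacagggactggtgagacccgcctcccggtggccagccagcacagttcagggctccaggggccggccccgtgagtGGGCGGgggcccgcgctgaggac
The 4 promoters differed in base composition. GC content was 70.0% for Adamts9 with 25 CpG and 71.7% for Crybg1 with 28 CpG, against medians of 52.7% and 7 CpG over 32851 promoter windows of this length. Tspan11, at 53.3% and 5 CpG, was near those medians, and Gbe1 had 54.3% and 14 CpG. The GC box occurred 3 times in Crybg1, once each in Adamts9 and Gbe1, and not in Tspan11, while 35.7% of all windows held it. CTTTGAT, read by TCF and LEF factors, occurs in 3.7% of windows, and AGGTCA, read by ROR receptors, in 16.3%. Searched on both strands, neither run of letters was present in these 4 windows.

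Adamts9 and Crybg1 were found together in a minority of members. In sham, 28 of 135 members (20.7%) carried UMIs of both, and in injury 32 of 137 (23.4%), or 60 of 272 in all. A further 143 members had Crybg1 without Adamts9, 60 had Adamts9 without Crybg1, and 9 had neither and entered through Tspan11. Crybg1 was detected in 78.5% of sham and 70.8% of injury members, Adamts9 in 39.3% and 48.9%, and Tspan11 in 38.5% and 49.6%. At least 2 of the 3 rule genes were present in 64 sham members (47.4%) and 75 injury members (54.7%). The median sum of the 3 genes was 3 UMIs in sham and 4 in injury, with highest sums of 12 and 16. Most members therefore rested on a few UMIs of 1 or 2 genes, and the name of these neurons describes the group and not each nucleus.

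Levels of the rule genes showed how far the rule set the members apart. Adamts9 was at 60.3 CPM (50.6 to 71.3) in sham members and 98.0 (85.8 to 112) in injury members, against 7.23 and 7.92 CPM in all other glutamatergic nuclei. Crybg1 was at 138 and 135 CPM in members, against 14.7 and 12.8. Tspan11 was at 48.0 and 66.2 CPM, against 4.43 and 6.09. Oligodendrocyte nuclei were read for comparison. The source of their UMIs of these genes, such as free RNA in droplets, was not tested. Among 500 sham and 1193 injury oligodendrocyte nuclei, at median depths of 2118.5 and 2262 UMIs, Adamts9 was detected in 0.20% and 0.67%, Crybg1 in 0.40% and 0.25%, and Tspan11 in 0.20% and 0.17%. Members were far deeper, with median totals of 15472 UMIs in sham and 15430 in injury, against 9109.5 and 9355 in the other glutamatergic nuclei.

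**Figure D1:**
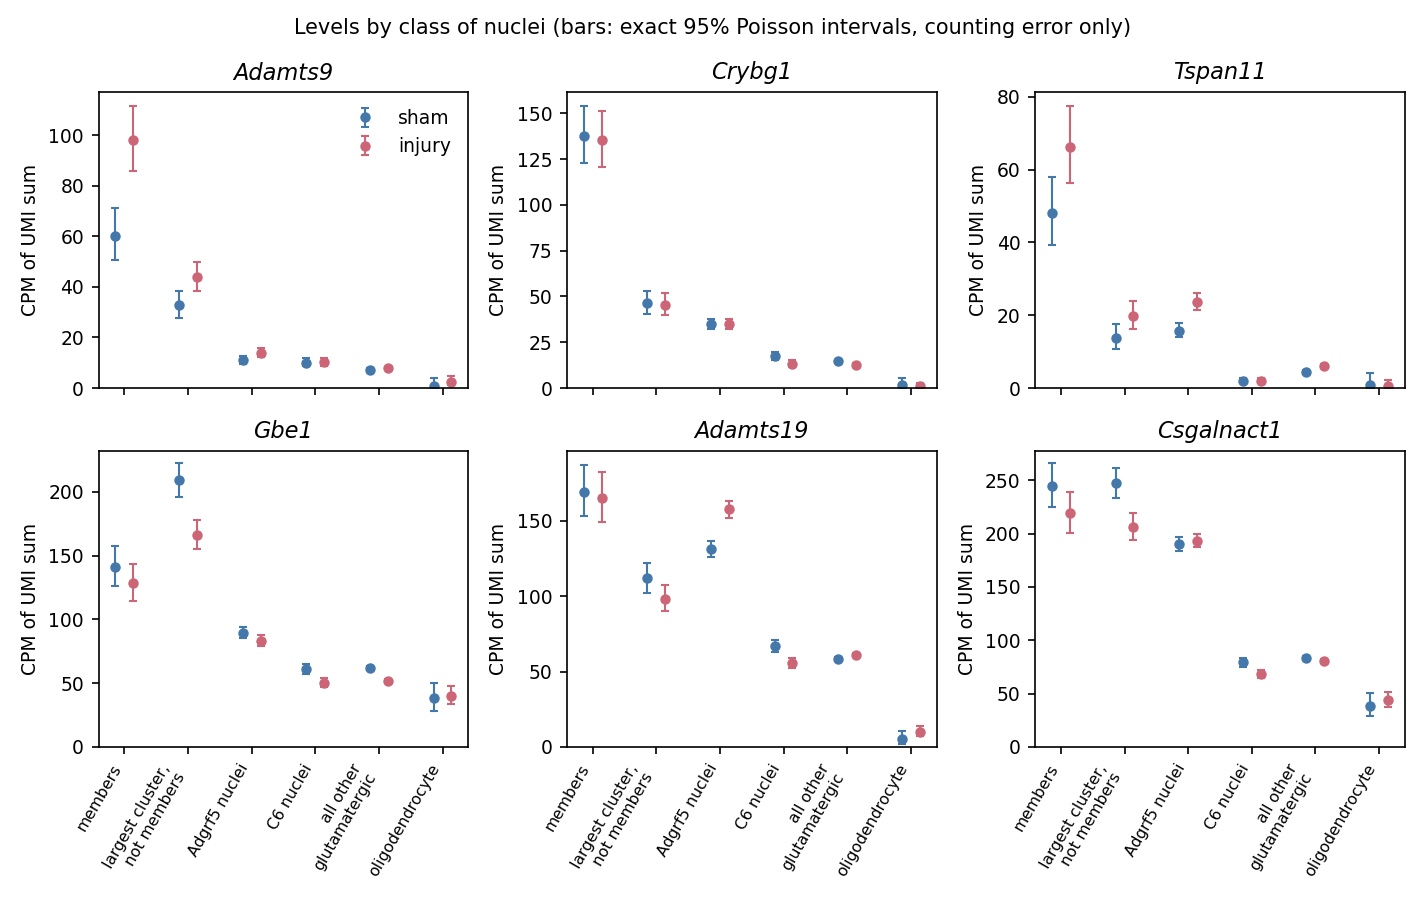
Levels (CPM of UMI sums, linear axes from 0) of the 3 rule genes, Gbe1, Adamts19 and Csgalnact1 in 6 classes of nuclei, with sham in blue, injury in red and bars for exact 95% Poisson intervals. Adamts9, Crybg1 and Tspan11 peak in members, as the rule fixes, while Gbe1 is highest in the non-member nuclei of the largest cluster, at 209 CPM in sham and 166 in injury.

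Gbe1, which took no part in the rule, was high in the members. It was at 141 CPM (126 to 157) in sham members and 128 (114 to 143) in injury members, against 61.9 and 51.4 CPM in other glutamatergic nuclei. It was detected in 68.1% of sham and 72.3% of injury members, and in 8.2% and 9.47% of oligodendrocyte nuclei. The other part of the label, thalamic and glutamatergic, was read beside markers. The glutamatergic part was set by the rule and could not be checked by Slc17a6, at 197 and 154 CPM. Tcf7l2, the transcription factor that marks thalamic glutamatergic neurons, was at 610 and 585 CPM. It was detected in 97.8% of sham and 95.6% of injury members, but with under 3 UMIs or none in 12 and 17 of them. Its level did not set members apart from other glutamatergic nuclei, as given below. Of other cells' markers, Aqp4 (astrocytes), Cspg4 (oligodendrocyte precursors), Cldn5 (endothelium) and Tmem119 (microglia) were at 0 in members of both libraries, which allows up to 3 UMIs of each. Other genes of these lists were present. The 6 astrocyte markers summed to 923 UMIs in sham and 1132 in injury members, 406 and 480 CPM against 288 and 291 CPM in other glutamatergic nuclei, and were found in 125 of 135 and 123 of 137 members. Slc1a2, a glutamate transporter, made up 917 and 1089 of these UMIs. The 6 microglia markers summed to 187 and 203 UMIs, 82.3 and 86.1 CPM against 114 and 123 CPM in other glutamatergic nuclei, mostly of P2ry12, a purinergic receptor, with 127 and 132 UMIs. The part of RNA from these cells in the members' ratios was not tested.

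Nuclei on both sides of the limit of 3 UMIs shared part of their features. Among nuclei that met the other conditions, 112 sham and 142 injury nuclei stood just outside with a sum of 2, and 68 and 47 stood just inside with a sum of 3. Gbe1 was at 106 CPM in sham and 84.1 in injury just outside, and at 111 and 122 just inside. The largest cluster of a clustering made without the rule genes held 12.5% of sham and 21.8% of injury nuclei with a sum of 2, 33.8% and 27.7% with a sum of 3, and 47.4% and 52.9% with a sum of 5. In sham, Gbe1 was thus about level on both sides of the limit. The other conditions also kept nuclei out. Of 320 sham and 380 injury glutamatergic nuclei with a sum of at least 3, a C6, Tspear and Tll1 sum as large or larger kept out 67 and 99, and a larger Adgrf5, Abhd12b and Zfp385c sum 147 and 198, with some kept out by both.

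**Figure D2:**
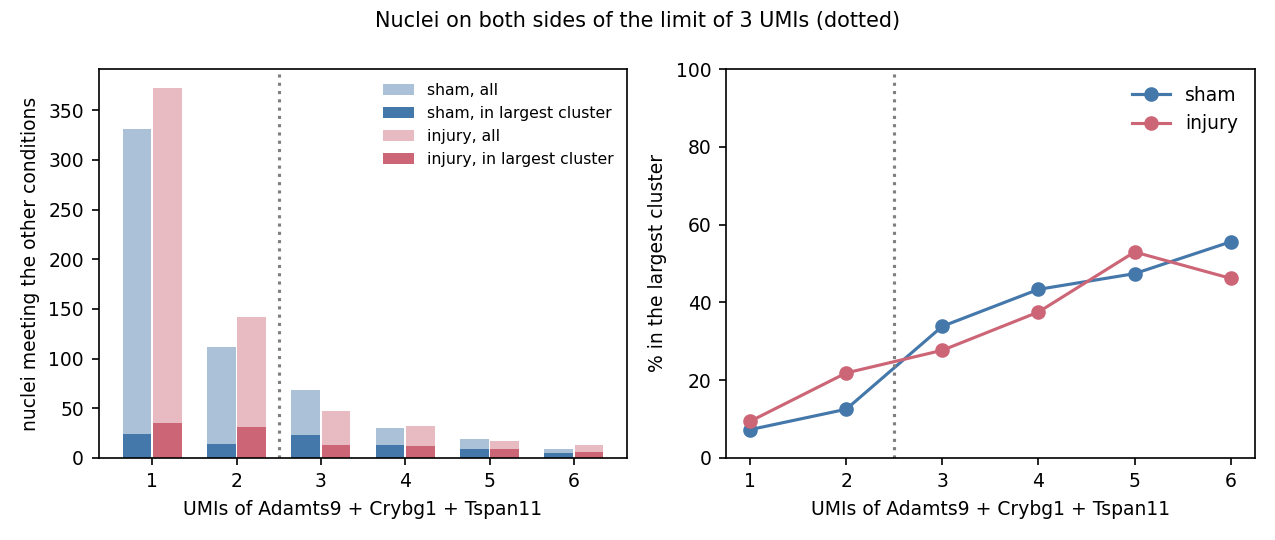
Left, number of nuclei that meet all other conditions by their summed UMIs of Adamts9, Crybg1 and Tspan11 (1 to 6; pale bars, all such nuclei; dark bars, those in the largest cluster). Right, the percentage in the largest cluster, which goes from 7.25% in sham and 9.38% in injury at a sum of 1 to 55.6% and 46.2% at a sum of 6. Across the dotted limit, from a sum of 2 to 3, sham goes from 12.5% to 33.8% and injury from 21.8% to 27.7%.

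Leiden clustering of all 18231 glutamatergic nuclei, with the 9 rule genes of the 3 sums left out of the features, placed the members in 20 of 32 clusters. One cluster held 58 of 135 sham members and 55 of 137 injury members, 41.5% of all members. Members were 13.5% of that cluster's nuclei, which numbered 396 in sham and 442 in injury. Its leading genes by fold over the other clusters were Ppp1r3a, a muscle-type subunit that brings protein phosphatase 1 to glycogen, then Adamts9, Agtr1b, Pik3c2g, Zfp114, Tspan11, Ahnak2, Crybg1, Gm30564 and Gbe1. The 3 rule genes took no part in building it. But it was picked as the cluster with the most members, a choice that favours these genes among its leading genes. In its 338 sham and 387 injury nuclei that were not members, Adamts9 was at 32.7 and 43.8 CPM and Crybg1 at 46.2 and 45.6, between members and other nuclei. The same cluster held 182 sham and 182 injury nuclei that met the rule's mirror image, at least 3 UMIs and the largest of the sums, for Adgrf5, Abhd12b and Zfp385c (called Adgrf5 nuclei here), and 38 and 31 that met it for C6, Tspear and Tll1 (C6 nuclei).

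The second cluster by members held 7 sham and 14 injury members and was led by Tspan11, Fzd6 and Slc16a12. Another cluster, with 0 sham and 126 injury nuclei and led by Ccdc3, Ccbe1 and the cortical neuron factors Neurod6 and Neurod2, held 6 injury members. Of 3 clusters with no sham nucleus it alone held members, and it is the one meant below. The others had 134 and 82 injury nuclei. Nuclei of these clusters that were not members stayed among the other glutamatergic nuclei of the injury library in all ratios. Their part in that class's ratios was not tested. The 4 cortex markers summed to 1 UMI in sham members and 26 UMIs in injury members, and their part in the members' levels was not tested. Ratios of injury over sham are given below also without those 6 nuclei for many of the named genes. Not every gene that this moved past or back over 1.5-fold is listed. Cdh9 (from 0.68 to -0.44) and Bdnf (from -0.15 to -0.97) are examples. A cluster led by Gjc3, Aspa and Ermn, genes of oligodendrocytes, held 1 sham and 4 injury members.

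Members differed inside and outside the largest cluster. Gbe1 was at 234 CPM in the 58 sham members inside it and 74.6 CPM in the 77 outside, and at 180 and 93.4 CPM in injury. Ppp1r3a was at 33.9 inside and 9.79 outside in sham, and in injury it had 33 UMIs inside and 12 outside. Prkcd, a protein kinase C that marks sensory relay and other thalamic nuclei, was at 507 and 228 CPM in sham and 505 and 284 CPM in injury. Outside the cluster the members were richer in Necab1, a neuronal calcium-binding protein, with log2 ratios of inside over outside of -1.39 (-1.72 to -1.06) in sham and -1.07 (-1.42 to -0.73) in injury. Calb2, the calretinin gene, had 4 UMIs inside and 21 outside in sham, and 0 and 17 in injury. Tcf7l2 was level in sham (-0.08, -0.23 to 0.08) and higher inside in injury (0.37, 0.22 to 0.53). Adamts19 was higher inside in sham (0.95, 0.65 to 1.25) and not in injury (-0.29, -0.60 to 0.02).

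The number of rule genes in a nucleus divided the members in a similar way for Ppp1r3a, Csgalnact1 and Necab1. Members with 2 or 3 of the genes had more Ppp1r3a than those with 1, at 36.4 against 3.49 CPM in sham and 30.4 against 3.96 CPM in injury. Csgalnact1, which starts chondroitin sulfate chains, had log2 ratios of 1.37 (1.10 to 1.64) in sham and 1.62 (1.31 to 1.95) in injury. Necab1 was lower, at 56.8 against 352 CPM in sham and 63.1 against 297 CPM in injury. Of members resting on 1 rule gene, 31.0% in sham and 27.4% in injury lay in the largest cluster, against 56.2% and 50.7% of the others. In injury, Adamts19 and Frmpd1 were at 1.22 and 1.42 for 2 or 3 genes over 1, but at -0.29 and 0.26 inside over outside the cluster. Members with 2 or 3 genes were deeper, at medians of 16250 UMIs in sham and 17105 in injury, against 14776 and 14509.

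Co-detection of the rule genes differed from pair to pair. Among glutamatergic nuclei with at least 10000 UMIs, Tspan11 was detected in 19.7% of sham and 26.0% of injury nuclei with Crybg1, against 4.04% and 5.40% of those without it. With Adamts9 the share was 8.97% in sham and 15.1% in injury, against 6.73% and 7.85% without. Crybg1 was found in 27.4% and 22.4% of nuclei with Adamts9, against 17.6% and 14.8%. Gbe1 accompanied Crybg1 in 65.2% and 64.8% of nuclei, against 41.8% and 38.5%. The nuclei with a gene were deeper than those without it, for example at medians of 16398 and 13628 UMIs for Crybg1 in sham, and the part of depth in these shares was not tested.

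Adamts9 overlaps 3 genes on the other strand, among them an antisense gene, and its UMIs have to be read with that in mind. Crybg1 overlaps 2 genes on the other strand and Tspan11 1. 9530026P05Rik (chr6:92940329-93272979, plus strand) overlaps Adamts9 (chr6:92772699-92943492, minus strand) over 3164 bases at the start of both genes, and whether counting used the strand is not given in the sources used here. Members with Adamts9 carried 9530026P05Rik in 58.5% of sham (31 of 53) and 50.7% of injury nuclei (34 of 67), at 135 and 132 CPM. Of members without Adamts9, 20 of 82 in sham (24.4%) and 21 of 70 in injury carried it, at 32.8 and 54.3 CPM. Other glutamatergic nuclei stood at 41.3 and 43.9 CPM and the non-members of the largest cluster at 79.1 and 95.7 CPM. Reads of the 2 genes within the shared bases cannot be told apart without strand.

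Members were compared with all other glutamatergic nuclei, the rule genes left aside. Of 15248 genes with enough UMIs, 2.07% were at least 1.5-fold higher in members in both libraries and 8.89% at least 1.5-fold lower. Adamts19 and Adamts2, relatives of Adamts9, were at 169 and 99.5 CPM in sham members and 165 and 103 CPM in injury members. Their log2 ratios over other nuclei were 1.54 and 1.49 in sham and 1.44 and 1.30 in injury. Csgalnact1 had log2 ratios of 1.55 (1.43 to 1.68) in sham and 1.44 (1.31 to 1.57) in injury. Slco2a1, a prostaglandin transporter, had 1.33 and 1.31, and Plxdc1, a plexin domain receptor, 1.27 and 1.54. Adarb2, an RNA-binding relative of the RNA-editing adenosine deaminases, was abundant at 3921 and 3939 CPM, with log2 ratios of 1.21 and 1.26. Gbe1 itself had 1.19 (1.02 to 1.35) and 1.32. The other genes named by the same rule were Frmpd1 (1.47 and 1.25), Cnksr3 (1.08 and 1.13), Fhdc1 (1.04 and 1.35) and the noncoding Gm28822 (1.62 and 1.18) and Gm2762 (1.25 and 1.08). Adgrf5 nuclei shared part of these traits. The plot of levels by class shows Adamts19 at 131 CPM in sham and 158 CPM in injury in them, and Csgalnact1 at 191 and 193 CPM, against 245 and 219 CPM in members. Of 10 measured thalamic nucleus markers, 0 were past 1.5-fold higher in members than in Adgrf5 nuclei and 1 was lower. Over all 10585 genes measured there, 1.14% were higher and 0.888% lower.

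**Figure D3:**
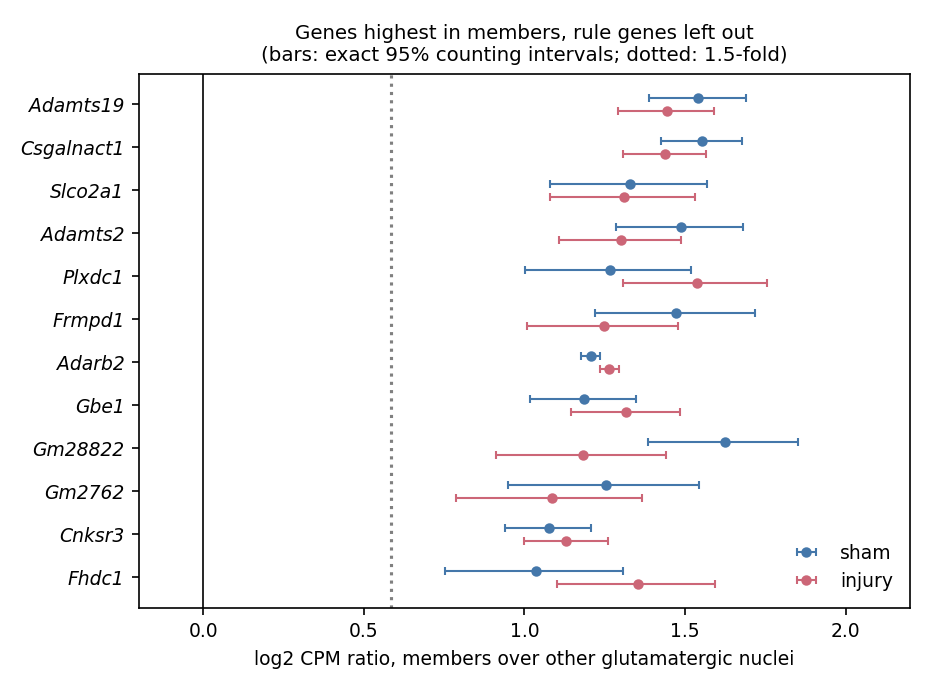
Log2 CPM ratio of members over all other glutamatergic nuclei for the 12 genes highest in members, sham in blue and injury in red, with exact 95% counting intervals and a dotted line at 1.5-fold. All 12 lie past the line in both libraries, from 1.04 (Fhdc1, sham) to 1.62 (Gm28822, sham), and the libraries' intervals overlap for most genes.

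The genes lowest in members relative to other glutamatergic nuclei were absent or nearly so. Ebf2, a transcription factor gene, had 1 UMI in sham members and 3 in injury members, against 771 and 1723 in other glutamatergic nuclei, with log2 ratios of -4.32 (-9.63 to -1.84) and -3.74 (-6.02 to -2.19). Cubn, the cubilin receptor gene, had 1 UMI in each library, at -3.76 (-9.07 to -1.28) and -3.65 (-8.96 to -1.16). Dlk1 had 0 UMIs in both and was at least 1.27 lower on the log2 scale in sham and 1.39 in injury against a floor of 3 UMIs. Nrap, Hnf4g, F730016J06Rik and Chil5 were also at 0 in both, and Ctxn3 had 0 in sham and 2 UMIs in injury. Of 5 habenula markers, 4 were at least 1.5-fold lower in both libraries, Chat, Tac2, Pou4f1 and Nwd2, against 8.89% of all genes measured. Medians over the 5 were -1.49 and -1.66, against -0.12 and -0.14 over all genes. The 5 still summed to 352 UMIs in sham and 347 in injury members, or 155 and 147 CPM. Other glutamatergic nuclei stood at 527 and 715 CPM, C6 nuclei at 265 and 433, and Adgrf5 nuclei at 76.7 and 102. Without the 5 highest members, 44 sham and 71 injury UMIs were left. A cluster led by Chat held 1 sham and 1 injury member, and another with Tac2 and Chat among its leading genes 3 and 1.

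Gene lists placed the members among the thalamic neuron types. Of 12 thalamic nucleus markers, Prkcd (log2 ratios of 1.03 in sham and 1.19 in injury), Rorb, an orphan nuclear receptor (0.93 and 0.94), Scn4b, a sodium channel beta subunit (1.92 and 2.16), and Pvalb, encoding parvalbumin (1.30 and 1.81), were past 1.5-fold higher, while Calb2 and Cdh9 were lower. Pvalb rested on 9 and 18 UMIs and Scn4b on 22 and 23. Of 12 thalamic identity genes, Lef1, Synpo2 and Plekhg1 were higher and Lhx2 and Zic4 lower. Of all 15248 genes measured, 2.07% were past 1.5-fold higher and 8.89% lower. The members were thus on the side of Prkcd, Rorb and Scn4b and away from Calb2 in these markers. Tcf7l2 was level with other nuclei, at 0.02 and 0.02.

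Channel and receptor genes are read against the 2.07% of all genes past 1.5-fold higher and 8.89% lower. Kcna1, a fast potassium channel of axons, was at 81.9 CPM in sham and 67.0 CPM in injury members, against 40.8 and 34.4 CPM in other glutamatergic nuclei, and Kcnc2 (0.68 and 0.72) and Kcnq3 (0.64 and 0.59) were also higher, 3 of 27 voltage-gated potassium channel genes against 3 lower. Of 15 calcium channel genes, none was higher and 4 were lower, Cacna1e, Cacna1i, Cacnb3 and Cacna2d2, with Cacna1e, a pore gene, at -1.37 and -1.33. Of 17 ionotropic glutamate receptor genes, Gria3 (0.77 and 0.80) and Grin2c (0.98 and 0.91) were higher and Gria1 (-0.85 and -0.64) and Grik3 lower. Of 47 axon guidance genes, Epha4 and Sema7a were higher and 14 lower, with medians of -0.24 and -0.42 against -0.12 and -0.14 over all genes measured. Slit2, a secreted guidance cue, was among the 14, at -2.26 and -1.09. Without the 6 injury members named above, the injury ratios over other nuclei were lower for Slit2 (-1.69), Cacna1e (-1.90) and Gria1 (-1.13). Of 17 ADAMTS genes other than the rule gene, Adamts2 and Adamts19 were higher and Adamts12, Adamts18 and Adamtsl3 lower. Of 22 listed glycogen genes Gbe1 was the one higher gene and Phkg1 the one lower gene, and Gys1, glycogen synthase, stood at 0.06 and 0.02. Ppp1r3a, the glycogen subunit gene named above, was not on that list and was higher in members. In sham it had 45 of 2272035 UMIs in members against 246 of 87659015 in other glutamatergic nuclei. In injury it had 45 of 2356680 against 200 of 101248938. Adgrf5 nuclei held 176 sham and 120 injury UMIs of it. Over Adgrf5 nuclei, 6 of 37 axon guidance genes were higher, Nrp2 among them, and 0 lower, with medians of 0.13 and 0.06. Without the 6 injury members, Slit1 (0.43) and Nrp1 (0.56) were under 1.5-fold in injury. Cacna1e was also higher over Adgrf5 nuclei, at 0.63 in injury, or 0.07 (-0.12 to 0.25) without the 6. Kcna1, Kcnc2, Kcnq3, Gria3 and Grin2c were not past 1.5-fold higher there. Of all genes, 1.14% were higher there and 0.888% lower.

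Fewer genes parted the members from Adgrf5 nuclei than from C6 nuclei. Against the 1181 sham and 1180 injury Adgrf5 nuclei, 1.14% of 10585 genes were past 1.5-fold higher in both libraries and 0.888% lower. Against the 1285 and 1294 C6 nuclei these shares were 1.8% and 3.9% of 10859 genes. Over C6 nuclei, Npsr1, the neuropeptide S receptor gene, had log2 ratios of 3.35 and 1.86, and Adamts2 had 2.29 and 1.92. A minority of members carried Npsr1, 22 of 135 in sham and 19 of 137 in injury. In sham, 138 of its 264 UMIs were in 5 nuclei, and 110 were in the 9 members of a cluster that Npsr1 itself led. In injury, 72 of 125 were in 5 nuclei. Csgalnact1 (1.63 and 1.69), Frmpd1, Slco2a1 and Plxdc1 completed the 6. Sema3d, a repulsive guidance cue, was lower at -3.38 (-5.67 to -1.81) and -2.52 (-3.84 to -1.46), with Galr1, Snx20, Eln, Mob3b and Gpr139. Over Adgrf5 nuclei, 9530026P05Rik was first, at 1.63 and 1.76, and Dlgap2, a postsynaptic scaffold gene, had 1.60 and 2.22, followed by Col12a1, Fam19a1, Nkain3 and Ppfibp1. Without the 6 injury members of the cluster with no sham nucleus, the injury ratios were 0.13 (-0.20 to 0.44) for Dlgap2, -0.05 (-0.26 to 0.15) for Fam19a1 and 0.28 (-0.02 to 0.57) for Nkain3, while 9530026P05Rik, Col12a1 and Ppfibp1 stayed past 1.5-fold. Eln, encoding elastin, was lower than in both classes, with 1 UMI in sham and 4 in injury members. Sycp2l, Kirrel, Pappa, Bnc2 and Col18a1 were the other genes lower than in Adgrf5 nuclei.

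Members made up 0.825% (0.692 to 0.975) of sham nuclei and 0.629% (0.528 to 0.743) of injury nuclei. Among glutamatergic nuclei the shares were 1.56% (1.31 to 1.84) of 8677 and 1.43% (1.21 to 1.69) of 9554. The intervals overlapped in both denominators. Once nuclei were thinned to 3000 UMIs each, 5 of 4972 sham (0.101%) and 16 of 5272 injury (0.303%) glutamatergic nuclei still met the rule, so the order of the libraries turned with this setting. It also turned among glutamatergic nuclei with a rule limit of 5 UMIs (0.426% and 0.607%) and of 2 UMIs (2.85% and 2.92%). A lower number of members and a higher number of other nuclei cannot be told apart from shares. The largest cluster held 4.56% of sham and 4.63% of injury glutamatergic nuclei.

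Of the 4 markers, Adamts9 and Tspan11 were higher in injury members. The log2 ratio of injury over sham was 0.70 (0.39 to 1.02) for Adamts9 and 0.46 (0.10 to 0.83) for Tspan11, but these genes chose the members, and their ratios in all nuclei of the largest cluster were 0.66 (0.41 to 0.91) and 0.23 (-0.10 to 0.57). The cluster was built without them but includes 113 of the members. In its nuclei that were not members, Adamts9 was at 32.7 CPM in sham and 43.8 in injury, and Tspan11 at 13.8 and 19.8 CPM. In C6 nuclei, in Adgrf5 nuclei and in all other glutamatergic nuclei, the Adamts9 ratios were 0.03, 0.33 and 0.13, and those of Tspan11 were 0.09, 0.59 and 0.46, the last equal to its ratio in members. Crybg1 stood at -0.03 (-0.25 to 0.20) in members and -0.15 (-0.37 to 0.07) in the cluster. Gbe1 stood at -0.14 (-0.37 to 0.10) in members and was lower in injury in the whole cluster, at -0.34 (-0.46 to -0.22). The ratios of the 4 markers in members thus ran from -0.14 to 0.70.

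Ribosomal protein genes were lower in injury members. Of 8518 genes with at least 50 UMIs over both libraries' members, 3.7% were past 1.5-fold higher and 4.75% past 1.5-fold lower in injury, with a median log2 ratio of -0.02. Of 48 measured ribosomal protein genes, 45 were lower and 28 past 1.5-fold, none past it upward, with a median of -0.61. Rps12, a small-subunit protein, had 80 UMIs in 62 sham members and 28 UMIs in 23 injury members, a log2 ratio of -1.57 (-2.24 to -0.93). Rpl29 and Rps9 were each at -1.30 (-2.24 to -0.42) and Rpsa at -1.13 (-2.03 to -0.29). Single nuclei held few of these UMIs, at most 4 of Rps12 in a sham member and 3 in an injury member.

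The same 48 genes were lower in other neurons too. Past 1.5-fold lower were 24 in the largest cluster (median -0.59), 20 in Adgrf5 nuclei (-0.50), 13 in C6 nuclei (-0.42) and 10 in all other glutamatergic nuclei (-0.40). None of them was past 1.5-fold higher in any of these classes. Of all measured genes, 5.08%, 4.15%, 3% and 2.08% were past it downward in these classes, in that order, and 2.46%, 2.44%, 3.33% and 4.98% upward. Rps12 stood at -0.77 in the largest cluster and at -0.43 in other glutamatergic nuclei. Fewer UMIs make single ratios in members less precise than in the larger classes, and no difference between the classes was tested. Without the 6 injury members of the cluster with no sham nucleus, 25 of the 28 stayed past 1.5-fold lower in members. Of 29 translation factor genes, 1 was past 1.5-fold lower, near the share over all genes, the elongation factor gene Eef1a1 at -0.78 (-1.32 to -0.25), and the median was -0.09. Without the 6 nuclei Eif5 went from 0.54 to 0.60, past 1.5-fold higher.

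**Figure D4:**
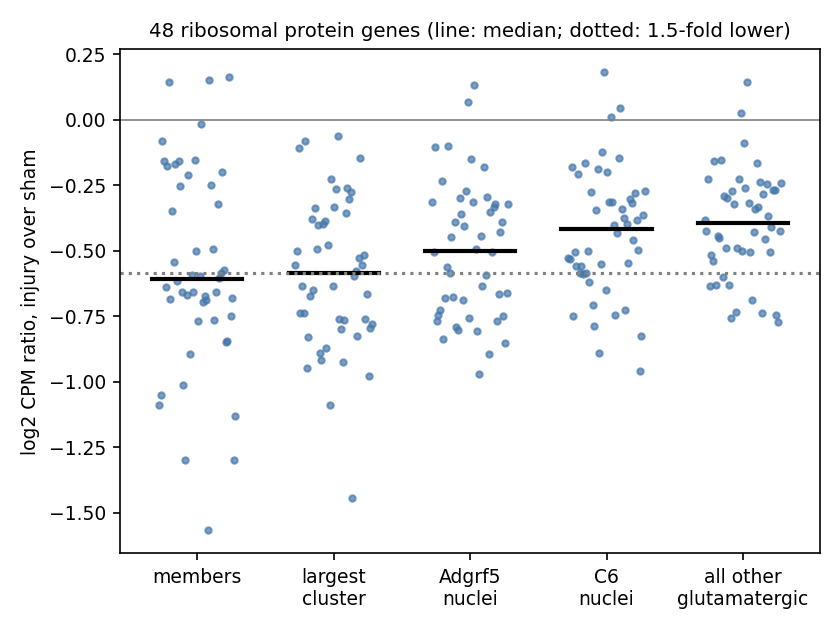
Log2 CPM ratio of injury over sham for the 48 ribosomal protein genes (points) in members, the largest cluster, Adgrf5 nuclei, C6 nuclei and all other glutamatergic nuclei, with a line at each median and a dotted line at 1.5-fold lower. Most points lie below 0 in every class, and the medians run from -0.61 in members to -0.40 in all other glutamatergic nuclei.

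Most of the genes with the largest injury excess were carried by a few nuclei. Hs3st4, a heparan sulfate sulfotransferase gene, had 205 UMIs in sham and 695 in injury members, a log2 ratio of 1.71 (1.48 to 1.94), but 529 of the injury UMIs (76.1%) were in the 6 members of the cluster with no sham nucleus. Without those 6 the ratio was -0.28 (-0.58 to 0.02). The lincRNA Gm49678 had 100 of 103 injury UMIs in them, and Prkca, a protein kinase C gene, 270 of 331. The remaining ratios shrank as well. Without the 6 nuclei, Prkca went from 2.34 to -0.02, Ccbe1 from 2.96 to -1.11, Dpf3 from 1.93 to 0.10, and Zbtb20, a zinc finger repressor gene, from 1.41 to 0.14. Trhde went from 1.96 to 0.76, Dscaml1 from 1.66 to 0.53 and Zeb2 from 3.03 to 1.47 (0.67 to 2.34). For these 9 genes the cluster with no sham nucleus held the largest number of injury members' UMIs. Zeb2 and Dscaml1 were also higher in injury in the other classes. In C6, Adgrf5, other glutamatergic and largest cluster nuclei, Zeb2 stood at 1.82, 1.40, 1.78 and 2.15, and Dscaml1 at 0.93, 0.91, 1.08 and 0.82. Trhde stood at -0.003 in C6 and 0.09 in Adgrf5 nuclei.

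The other 3 genes had other sources. Ttn, encoding titin, had 9 UMIs in 9 sham members and 73 in 21 injury members, and 43 of the 73 were in the 14 injury members of the cluster that Tspan11 led. St18, a zinc finger gene expressed in oligodendrocytes, had 14 and 76 UMIs, 62 of the 76 in the 4 injury members of the cluster led by oligodendrocyte genes. Leaving out the 1 sham and 5 injury members with at least 10 UMIs of 6 oligodendrocyte markers left 5 and 8 St18 UMIs, a ratio of 0.69 (-1.11 to 2.64). The summed level of those markers was 34.3 CPM in sham and 102 CPM in injury members, and all 6 were detected in both. The part of oligodendrocyte RNA in other ratios was not tested.

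Creb5, a transcription factor gene of the CREB and ATF family, had 14 UMIs in 11 sham members and 68 in 25 injury members. Its log2 ratio was 2.23 (1.38 to 3.17). Of the 68 UMIs, 31 were in the 55 injury members of the largest cluster, and 35 were in 5 nuclei. In all nuclei of the largest cluster Creb5 had 9 UMIs in 8 of 396 sham nuclei and 164 UMIs in 76 of 442 injury nuclei. These were 1.61 against 26.7 CPM, a ratio of 4.05 (3.09 to 5.21). In C6, Adgrf5 and all other glutamatergic nuclei the ratios were 1.07, 1.21 and 1.43. Among the 12 genes highest in injury members it had the largest ratio in the largest cluster, Gm49678, with no sham UMI there, left aside.

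**Figure D5:**
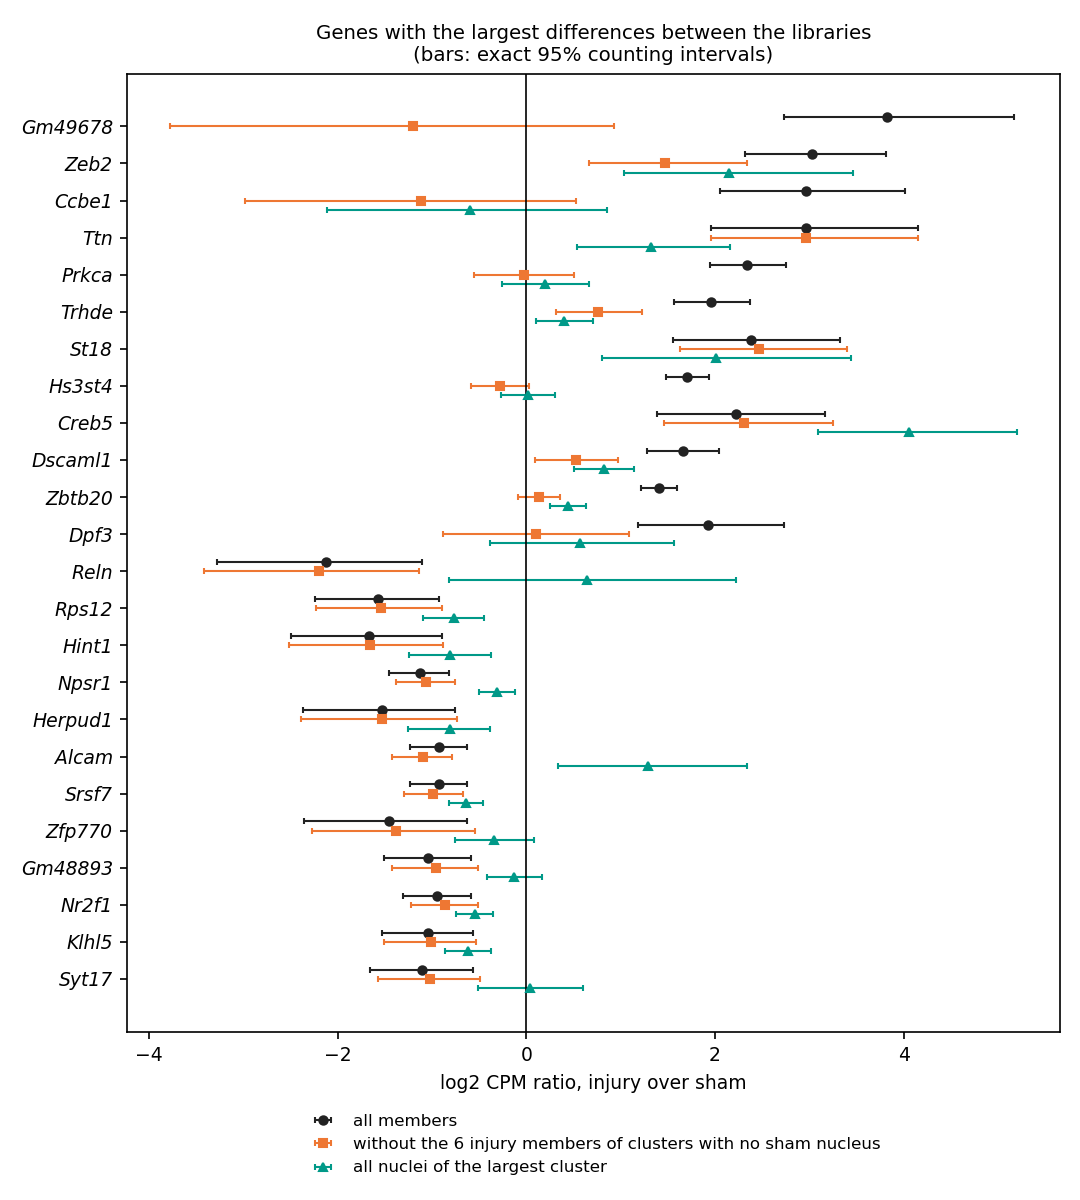
Log2 CPM ratio of injury over sham for the 12 genes highest and the 12 lowest in injury members, in all members (black), without the 6 injury members of clusters with no sham nucleus (orange) and in all nuclei of the largest cluster (green), with exact 95% counting intervals. Black and orange points part for 9 of the 12 upper genes, as for Hs3st4 at 1.71 and -0.28, and stay close for the 12 lower genes, while the green Creb5 point is at 4.05. No green point is drawn for Gm49678, which had 0 sham UMIs in the cluster, with 3 in injury.

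The genes lowest in injury members kept their direction without those 6 nuclei, but this outcome was fixed beforehand. Leaving out injury nuclei can raise a ratio only through the smaller injury total. Gm48893, which kept its 62 injury UMIs, went from -1.04 to -0.96. That step was too small to bring any of these genes to 0. Hint1, a nucleotide hydrolase gene, had 58 UMIs in sham and 19 in injury members (-1.66, -2.49 to -0.89), and Herpud1, an endoplasmic reticulum stress gene, 53 and 19 (-1.53). Srsf7, a splicing factor gene, had 260 and 142 UMIs (-0.93, -1.23 to -0.62), and Nr2f1, a nuclear receptor gene of thalamic and cortical patterning, 189 and 102 (-0.94). Zfp770 (-1.46), Klhl5 (-1.04) and the noncoding Gm48893 (-1.04) were lower as well. In the whole cluster Hint1 stood at -0.81, Herpud1 at -0.81, Srsf7 at -0.64, Nr2f1 at -0.55 and Klhl5 at -0.62. These 5 thus kept their direction there with smaller ratios, while Zfp770 (-0.34, -0.75 to 0.08) and Gm48893 (-0.13, -0.42 to 0.17) had intervals that reached 0. The lower levels were not particular to members. In C6, Adgrf5 and all other glutamatergic nuclei, Hint1 stood at -0.52, -0.87 and -0.59 and Srsf7 at -0.53, -0.58 and -0.46. Nr2f1 stood at -0.63, -0.32 and -0.55, Herpud1 at -0.18, -0.55 and -0.38, and Klhl5 at 0.0007, -0.30 and -0.08. Reln (42 and 10 UMIs, 36 of the 42 in 5 nuclei), Alcam (266 and 145) and Syt17 (91 and 44) were above 0 in the cluster. Reln was at 0.64 (-0.82 to 2.23) there on 7 and 12 UMIs. Alcam was at 1.29 (0.34 to 2.34) on 13 and 35 UMIs, and Syt17 at 0.04 (-0.51 to 0.61) on 53 and 60. Npsr1 had 264 and 125 UMIs, 138 of the 264 in 5 sham nuclei, and stood at -1.13 in members and -0.31 in the cluster.

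Receptor and channel lists are set against the 3.7% of all genes past 1.5-fold higher and 4.75% lower in injury members. Of 17 ionotropic glutamate receptor genes, Gria1, the GluA1 subunit, was at 343 and 563 CPM (0.72, 0.59 to 0.85) and Grik4, a kainate receptor subunit, at 122 and 190 CPM (0.64, 0.42 to 0.86), both past 1.5-fold, with a list median of 0.15. Without the 6 injury members of the cluster with no sham nucleus they were at 0.23 (0.09 to 0.37) and 0.05 (-0.19 to 0.30), and none of the 17 was past it. Gria1 stood at 0.37 in the largest cluster and at 0.51 in other glutamatergic nuclei, from which nuclei of clusters with no sham nucleus were not left out. Of 25 voltage-gated potassium channel genes, Kcnh1 (1.95), Kcnab2 (0.85) and Kcnq5 (0.63) were past it upward and none downward. Without the 6 nuclei Kcnab2 stayed past it, at 0.81, while Kcnh1 was at -0.46 (-1.79 to 0.82) and Kcnq5 at 0.20. Of 11 further channel genes, mostly of leak channels, Kcnk4 (1.20 on 16 and 38 UMIs) and Kcnk9 (0.74 on 64 and 111) were past it upward and none downward, against -0.12 and -0.05 in C6 nuclei. Both stayed past it without the 6 nuclei. None of 14 GABA receptor genes (median -0.18), 11 calcium channel genes (0.19), 8 sodium channel genes (-0.13) or 6 metabotropic glutamate receptor genes (0.01) was past 1.5-fold.

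Of 12 measured steroid and circadian responsive genes, 11 were above 0 in injury over sham, where 4034 of all 8518 genes were, and 2 were past 1.5-fold, against 3.7% of all genes. In the largest cluster 7 of the list's genes were above 0 and 8 below, with 2 past 1.5-fold each way, and in C6 nuclei 5 were above and 10 below. Zbtb16, a zinc finger gene that glucocorticoids induce, was at 38.7 and 86.6 CPM in members (1.16, 0.79 to 1.54), at 1.68 in the largest cluster, and at 1.29 and 1.36 in C6 and Adgrf5 nuclei. Fkbp5, a chaperone gene of the same response, was at 19.4 and 29.7 CPM (0.62, 0.05 to 1.19) and at 0.98 in the cluster. Without the 6 nuclei they were at 1.01 and 0.61. The list's median was 0.20. Of 10 genes of axon injury and stress, Lifr (0.91) and Stat3 (0.63) were past it upward and Sox11 (-0.70) downward, and Atf3 had 0 UMIs in members of both libraries.

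The lists of adhesion, matrix and other genes are read against the same 3.7% of all genes past 1.5-fold higher and 4.75% lower. Of 33 axon guidance genes, Slit2 (1.34, 0.92 to 1.78), Ephb1 (0.85), Sema5b (0.85) and Slit1 (0.78) were past 1.5-fold upward and Epha8 (-0.62) downward. Without the 6 nuclei Slit2 alone stayed past it, at 0.75 (0.29 to 1.21), and Ephb1 and Slit1 were both at -0.15. Of 26 synaptic scaffold genes, Dlgap2 was at 67.8 and 179 CPM (1.41, 1.14 to 1.68) and at 2.45 in the largest cluster, Dlg3 was at 0.59, C1ql3, a secreted synapse organiser, at -1.43 and Il1rapl2 at -0.71. Without the 6 nuclei Dlgap2 changed direction, to -0.69 (-1.07 to -0.31), Dlg3 was at 0.57, and C1ql3 and Il1rapl2 stayed past 1.5-fold lower. Il1rapl2 stood at 2.13 in the largest cluster, the opposite direction. Of 13 tetraspanin genes, Tspan2 (1.01), Tspan18 (0.95) and Tspan9 (0.62) were past 1.5-fold upward and Cd81 (-0.67) downward, all 4 also without the 6 nuclei. Of 10 ADAMTS genes, which include the rule gene, Adamts9 alone was past it, and Adamts2 (0.05) and Adamts19 (-0.03) were level. Of 15 glycogen genes, Gaa, the lysosomal glucosidase, alone was past it, at 1.12 on 27 and 61 UMIs, against -0.08 in the cluster. Without the 6 nuclei, Pygb, a glycogen phosphorylase, went from -0.54 to -0.77 (-1.33 to -0.23), past 1.5-fold lower. Of 11 thalamic identity genes, Lhx9 was past it downward, at -0.59, and at -0.58 without the 6 nuclei, just short of it.

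Members were set beside C6 and Adgrf5 nuclei for the genes whose ratios differed most. Beside C6 nuclei, Trhde, Prkca, Hs3st4, Fam19a1 and Zbtb20 had higher ratios in members and Npsr1, D130079A08Rik, Alcam, Kctd8 and Rgs6 lower ones. The 5 higher ones all moved without the cluster with no sham nucleus, Fam19a1 from 1.16 to -0.81. Rgs6, a regulator of G-protein signalling, stood at -0.42 (-0.59 to -0.26) in members and 0.45 (0.40 to 0.51) in C6 nuclei, and at 0.45 in the largest cluster. Kctd8, an auxiliary subunit gene of GABA-B receptors, stood at -0.63 and 0.43, and at -0.55 in members without the 6 nuclei. Beside Adgrf5 nuclei, Slit2 stood at 1.34 in members and -0.46 in Adgrf5 nuclei, and at 0.75 without the cluster with no sham nucleus. Prkca, Hs3st4, Trhde and Zbtb20 were again on the higher side, and D130079A08Rik, Dock2, Gm48893, Syt17 and Fam196b, the last lying within Dock2 on the other strand, on the lower side.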

How the data were processed

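The libraries of thalamic nuclei were 1 sham and 1 injury library, each from 4 pooled mice. Per the labels and methods, the authors aligned reads to GRCm38 (mm10) and counted UMIs with Cell Ranger 6.0.2, and deposited raw UMI counts per gene and barcode without normalization. Use of strand, intronic reads and the annotation release are not given in the sources used here. Each table had 32285 genes, of which 32158 took a symbol from GENCODE M21. The study's filter (200 to 7500 genes, mitochondrial share at most 2%) took out 9 sham and 30 injury barcodes by mitochondrial share and 8 and 21 by gene number. No doublet removal is named, so doublets were kept. Scrublet (scanpy 1.11.5) at 0.8% per 1000 nuclei called 2181 sham and 3872 injury nuclei, among them 20.7% of sham and 19.7% of injury members, against 14.4% and 19.1% of other glutamatergic nuclei.

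Counts were summed per class of nuclei and scaled to CPM (Python 3.11.15, numpy 2.4.6, scipy 1.17.1). Intervals at 95% are exact Poisson for levels, Clopper-Pearson for shares and exact conditional binomial for log2 ratios. They cover counting error only. With 1 library per group there was no test. Injury over sham used genes with at least 50 UMIs over both libraries' members, and list medians used a prior of 0.5 UMI. The named genes highest in members over other nuclei had at least 100 UMIs in members of each library, and the lowest had them in the other nuclei. List counts and shares over all genes also took in genes with fewer UMIs in members, such as Pvalb. A gene at 0 was bounded by a floor of 3 UMIs. Past 1.5-fold marks size only. Named genes were the 12 highest and 8 lowest in members over other nuclei, 6 each way over C6 and Adgrf5 nuclei, 12 each way by the interval bound nearest 0 for injury over sham, 5 each way for differences of those ratios (at least 20 UMIs in all 4 sums), and genes of the lists. Clusters came from 2000 variable genes, 30 components, 20 neighbours and Leiden resolution 1. The procedures were tested on simulated counts. The members, lists and rules were chosen with earlier results of these data known. Alternatives were TMM scaling (edgeR 4.0.16, R 4.3.3), thinning to 3000 UMIs, doublets left out, other limits of the rule, per-nucleus means, other count minimums and priors, and, chosen after the data were seen, subsets of members and the whole largest cluster.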

Additional observations from a re-analysis of the deposited data

Results flagged for a closer look

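Among the genes named for the largest differences from C6 or Adgrf5 nuclei, with at least 20 UMIs in each sum, 7 had opposite directions. The ratio of injury over sham in members lay on the other side of 0 from that in C6 or Adgrf5 nuclei, with neither counting interval reaching 0. Reln, with 10 UMIs in injury members, was under that minimum and also did so, at -2.12 in members, 0.47 in C6 nuclei and 0.74 in Adgrf5 nuclei. None of these differences was tested. Beside C6 nuclei, Npsr1 was at -1.13 in members and 0.36 in C6 nuclei, a difference of -1.49. D130079A08Rik, a lincRNA with 47 sham and 22 injury UMIs in members, was at -1.15 and 0.66, a difference of -1.81. Alcam was at -0.93 and 0.19 (-1.12), Kctd8 at -0.63 and 0.43 (-1.06), and Rgs6 at -0.42 and 0.45 (-0.88). Beside Adgrf5 nuclei, Hs3st4 was at 1.71 and -0.10 (1.81), and at -0.28 without the 6 injury members of the cluster with no sham nucleus. Slit2 was at 1.34 and -0.46 (1.80), and at 0.75 without those 6, and D130079A08Rik at -1.15 and 0.43 (-1.58). Some of these genes had the same direction as members in the other class. In Adgrf5 nuclei Npsr1 was at -0.54 (-0.73 to -0.36), Alcam at -0.25 (-0.41 to -0.10) and Rgs6 at -0.24 (-0.30 to -0.19), and in all other glutamatergic nuclei Npsr1 was at -0.87. In C6 nuclei Hs3st4 and Slit2 were both at 0.34. In all nuclei of the largest cluster, Alcam stood at 1.29 and Rgs6 at 0.45. Kctd8 at 0.72 (-0.21 to 1.70) and D130079A08Rik at 0.87 (-0.82 to 2.76) had intervals there that reached 0.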

How the results depend on the processing

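Shares of members depended on the rule. Among all nuclei they were, for sham and injury, 0.0357% and 0.0913% after thinning to 3000 UMIs, 1.51% and 1.28% with a limit of 2 UMIs, 0.226% and 0.266% with a limit of 5, 0.354% and 0.253% for members in the largest cluster, and 2.42% and 2.03% for all of its nuclei. Among glutamatergic nuclei the same settings gave 0.101% and 0.303%, 2.85% and 2.92%, 0.426% and 0.607%, 0.668% and 0.576%, and 4.56% and 4.63%. After thinning, 168 genes reached the count minimum, and 26 were past 1.5-fold higher and 11 lower in injury. A limit of 5 left 5209 genes, with 240 lower in place of 405. These counts are out of fewer genes measured, and after thinning they are larger shares of them than the 3.7% higher and 4.75% lower with all UMIs.

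Of 311 list medians under alternatives, 304 moved by less than the spread used for this comparison. The others were calcium channels (0.66), potassium channels (-0.18) and axon guidance (-0.37) after thinning, axon guidance without the cluster with no sham nucleus (-0.10) and in members with 2 or 3 rule genes (-0.12), and metabotropic glutamate receptors without doublets (-0.060) and at a limit of 5 (0.13). Of the ratios of members over other glutamatergic nuclei under alternatives, 102 stayed within their counting interval, 82 left it and none changed direction. Of the injury over sham ratios of single genes, 173 stayed within it, 76 left it and 15 changed direction as well. Without the cluster with no sham nucleus, Gm49678 was at -1.20, Ccbe1 at -1.11, Prkca at -0.020 and Hs3st4 at -0.28. In members of the largest cluster, Ttn was at -0.999 (2 and 1 UMIs), Prkca at -0.65 (11 and 7) and Hs3st4 at -0.75 (27 and 16). Reln was at 0.0010 there on 2 UMIs in each library, and Alcam at 0.74 on 3 and 5. In all nuclei of that cluster, Ccbe1 was at -0.59 (11 and 8 UMIs), Reln at 0.64 (7 and 12), Alcam at 1.29 (13 and 35) and Syt17 at 0.044. Dpf3 was at -0.050 in members with 2 or 3 rule genes, and Dscaml1 at -1.68 after thinning, on 1 UMI in each library. Scaling by TMM raised each of these gene ratios by the same small amount, Rps12 for example from -1.57 to -1.54.

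No paired analysis was possible because neither pool has a second library to match. A limit is that 1 library stands for each condition. Ratios resting on under 50 UMIs per library have intervals wider than the 1.5-fold used to describe them.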
